A study of Mus musculus with 6 samples.

Results

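The tripartite motif (TRIM) genes analysed here are the protein-coding genes of the deposited count table whose symbol is Trim followed by a number. They number 55 of 22030 genes in the table, and a further gene of that name pattern was not analysed here. They were measured by messenger RNA sequencing of mouse bone marrow mesenchymal stem cells, cultured stromal cells of the marrow with the capacity to become osteoblasts, adipocytes or chondrocytes. Of the 6 libraries, 3 are controls, titled siNC with the genotype label WT, and 3 come from RIOK3 knockdown cells, titled siRIOK3. The design text speaks of stable lines made with lentivirus and also of a knockout, so the agent is not settled by the labels. The sources used here give no mouse strain, age, culture medium or harvest day, and do not say whether the 3 libraries of each group were grown separately. The p-values therefore measure only the spread between these libraries, which may be technical.

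TRIM proteins carry, from the N terminus, a RING finger, B-box zinc fingers and a coiled coil, followed by a C-terminal domain that differs between subfamilies. The RING finger recruits a ubiquitin-charged E2 enzyme, so most members act as ubiquitin ligases. The family is best known for antiviral defence, where several members are induced by interferon and modify RNA sensors and their adaptors. Other members act on chromatin, on the cytoskeleton, in muscle or on messenger RNA. RIOK3, an atypical kinase of the RIO family, has itself been described as working with TRIM40 in the degradation of the RNA sensors RIG-I and MDA5.

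The libraries held between 28327612 and 32569544 counts. Levels are CPM, counts scaled to library size with TMM factors. Calls of change are those with an adjusted p under 0.05 in edgeR's quasi-likelihood test of the knockdown against the control, fitted on 13067 genes. Riok3, the targeted gene, was at 143, 193 and 135 CPM in control replicates 1, 2 and 3 and at 32.1, 31.5 and 37.2 CPM in the knockdown replicates, with no overlap (log2 fold change −2.23, SE 0.178, adjusted p = 0.000127). Levels followed a trend on GC content, the share of G and C bases in the transcript. The slope of log2 CPM, relative to the mean of all libraries, was −0.78, −0.44 and −0.63 per 10 points of GC in the controls and 0.65, 0.65 and 0.55 in the knockdown libraries. Centring on that mean gives the groups opposite signs by construction. Fold changes of members described singly are therefore also given with every library's own GC trend removed, below called the GC-corrected value. Control replicate 2 stood apart, with Spearman correlations of 0.963 and 0.968 to the other controls, against 0.996 between these. Stromal markers were present, with Pdgfra at 94.8 ± 25.2 CPM and Cxcl12 at 14.7 ± 4.13 CPM in control (SD, n = 3), while Lepr, at 0.331 CPM, was below the count filter. The summed level of the 11 stromal markers was 626 to 751 CPM in control and 458 to 483 CPM in the knockdown. Of the 10 tested, 5 were lower and 3 higher (26.8% and 21.1% of all tested genes). After GC correction 3 were lower and 2 higher (16.6% and 14.0% of all genes). Itgb1 and Cd44, at 381 and 127 CPM in control, made up most of the summed level. Their GC-corrected values were 0.12 and −0.01, neither called. Nt5e, Eng and Thy1 were low, at 3.09, 1.80 and 0.899 CPM in control. Macrophage markers, 7 of 9 listed and 2 tested, summed to 26.6 to 43.3 and 46.5 to 51.7 CPM. Most of that sum was Cd68, at 35.3 and 48.3 CPM, and the defining leukocyte genes Ptprc (0.0673 and 0.0104 CPM) and Itgam (0.129 and 0 CPM) were near 0. Endothelial markers summed to 2.73 to 7.12 CPM in control and 6.84 to 8.15 CPM in the knockdown, and adipocyte markers to 4.92 to 9.99 and 1.21 to 1.90 CPM. The part of other cells in the results was not tested. In bulk RNA, fewer cells of a type and less RNA per cell cannot be told apart.

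TRIM genes moved in both directions after RIOK3 knockdown. Of 55 members 41 passed the count filter, and of these 13 rose and 8 fell. Among all tested genes 21.1% were called higher, 26.8% lower and 48.0% in either direction, and the share of tested members called was 51.2%, near that background. The median log2 fold change was 0.39 over the tested members and 0.01 over all tested genes. In 28 of the 41 members (68.3%) the 3 knockdown libraries did not overlap the 3 controls, 18 being higher and 10 lower, against 62.1% of all tested genes. The largest falls were those of Trim23, Trim59, Trim33, Trim12c, Trim24 and Trim2, and the largest rises those of Trim62, Trim14, Trim45, Trim46, Trim66 and Trim63. With library totals in place of TMM factors, 20 rose and 6 fell, against 32.8% and 21.5% of all genes, and the median of all genes shifted to 0.26. Upper-quartile factors gave 18 rises and 6 falls, against 28.9% and 22.5% of all genes, with an overall median of 0.21. Without control replicate 2, 19 members rose and 13 fell (35.1% and 36.5% of all genes). Without knockdown replicate 1 the counts were 7 and 6 (12.3% and 20.4% of all genes), and without knockdown replicate 2 they were 7 and 7 (12.3% and 20.1%). The members' counts thus moved with those of all genes.

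**Figure D1:**
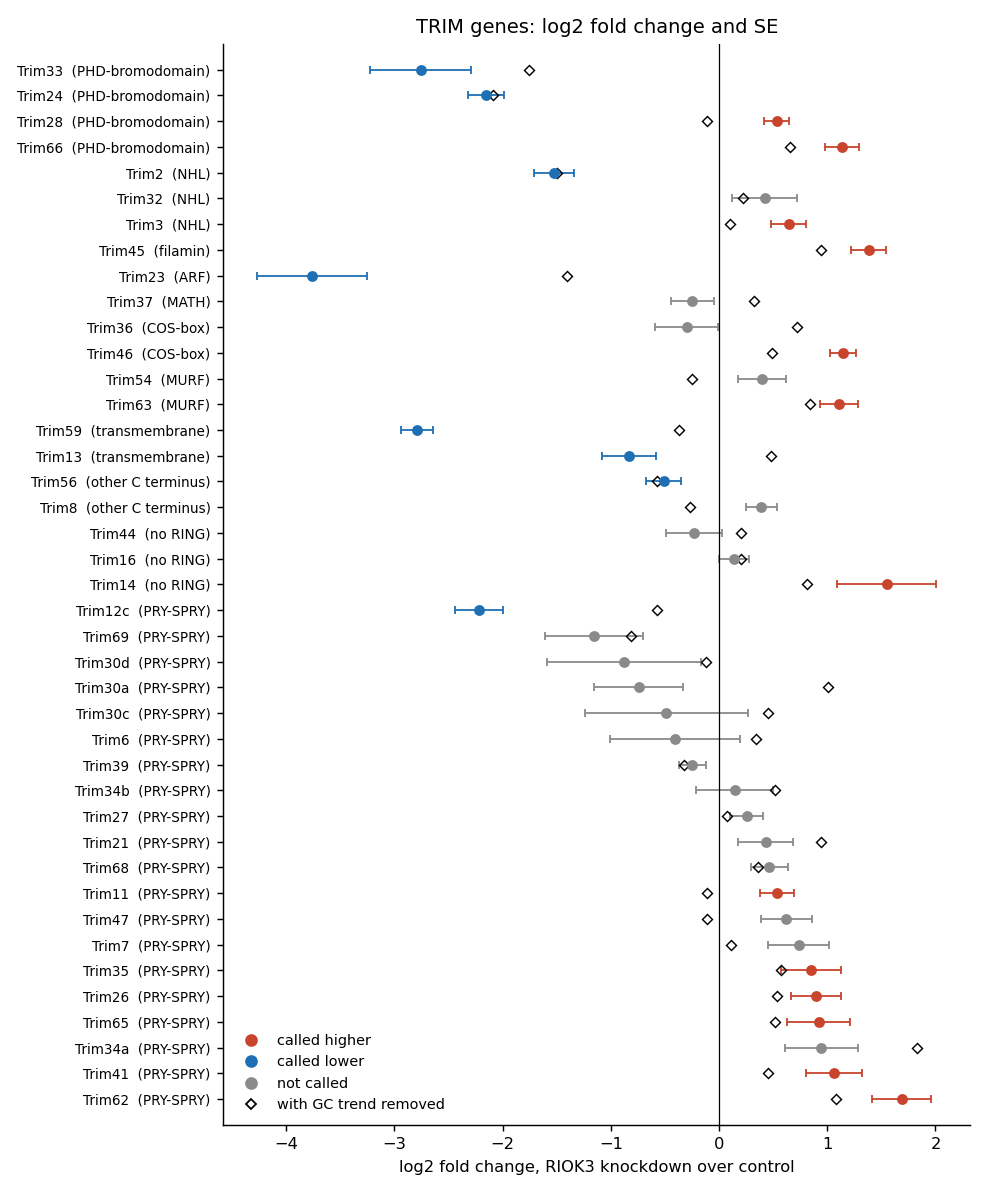
Log2 fold change of the 41 tested TRIM genes, knockdown over control, with SE bars, ordered by C-terminal class; filled points are coloured by call and open diamonds are GC-corrected values. The called values run from −3.76 for Trim23 to 1.69 for Trim62, and many diamonds lie nearer to 0 than their points.

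The direction of a TRIM gene went with the base composition of its transcript. The 13 members that rose had transcripts of 52.4 to 62.6% GC, and the 8 that fell had 37.6 to 50.3% GC, so these ranges did not overlap. Across the 41 members, log2 fold change and GC content had Pearson r = 0.74 and Spearman rho = 0.76, and across 13043 genes 0.68 and 0.70. These are correlations across genes of the same libraries, and genes are not independent replicates. After GC correction 7 members were called higher and 6 lower, against 14.0% and 16.6% of all genes (31.7% of members and 30.6% of genes in either direction). The median of the members was then 0.22 and that of all genes −0.01. When control replicate 2 was also dropped, 15 members were higher and 9 lower, with 30.6% and 30.7% of all genes. Of the 21 members called without correction, 11 were called in the same direction, 5 higher and 6 lower, and 0 in the opposite one. Trim21 and Trim34a were called with the correction and not in the uncorrected edgeR test, though some other uncorrected settings called them too. A total of 9 members kept their call and direction in each of 4 corrections, which removed GC content, GC content and length, GC and adenine content and length, or the GC content of the longest transcript. They are Trim23, Trim33, Trim24 and Trim2, which fell, and Trim62, Trim45, Trim46, Trim66 and Trim63, which rose. By contrast 8 of the called members were called in none of these 4. How many of all tested genes kept or lost their call in these ways was not counted. The numbers of members that did so therefore have no background here and are not a trait of TRIM genes. The correction for GC and length gave 10 members higher and 8 lower (39.1% of all genes called), and that for GC, adenine and length 9 and 6 (34.3% of all genes called).

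**Figure D2:**
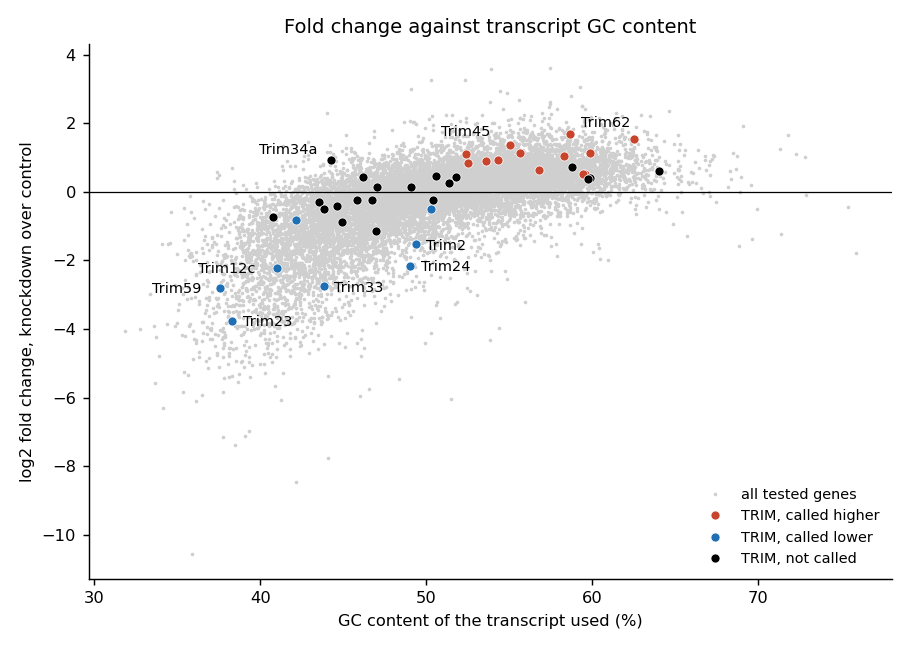
Log2 fold change (knockdown over control) against the GC content of the transcript used for each gene, in percent, for all tested genes in grey and TRIM genes in colour by call. The TRIM genes lie along the same slope as the grey cloud, with Trim24 and Trim2, at 49.1 and 49.4% GC, among the low points of their GC range.

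The 4 members with a PHD finger and a bromodomain, which read histone marks and act in chromatin, were all called and were split in direction. In the same fit 48.0% of all tested genes were called. After GC correction 1 of the 4 was called higher and 2 lower (14.0% and 16.6% of all genes). Trim24, a coactivator and corepressor of nuclear receptors and a regulator of p53, fell 4.45-fold. The gene (ENSMUSG00000029833.18, chromosome 6) was at 93.2, 118 and 85.9 CPM in control replicates 1, 2 and 3 and at 21.7, 24.0 and 21 CPM in the knockdown replicates. Every knockdown library was below every control (log2 fold change −2.15, SE 0.163, adjusted p = 0.000103), and the GC-corrected value was nearly as large, −2.09 (adjusted p = 0.000611).

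Trim33, also known as TIF1-gamma, acts on SMAD4 in TGF-beta signalling. It is ENSMUSG00000033014.13 on chromosome 3 and was at 68.1, 18.4 and 63.4 CPM in the controls and at 6.96, 8.11 and 7.08 CPM in the knockdown libraries. Control replicate 2 was much lower than the other controls but still above every knockdown library. The log2 fold change was −2.76 (SE 0.469, adjusted p = 0.00303), −3.15 without control replicate 2 and −1.76 after GC correction (adjusted p = 0.0173).

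Trim28, or KAP1, the corepressor that KRAB zinc finger proteins recruit to silence transposable elements, rose slightly. The gene (ENSMUSG00000005566.15, chromosome 7) was at 86.4, 96.8 and 98.6 CPM in control and at 137, 137 and 134 CPM in the knockdown (0.53, SE 0.116, adjusted p = 0.00804). Its rise was not seen after GC correction, where the value was −0.11 (adjusted p = 0.468), and its transcript has 59.6% GC. Trim66, a relative of these genes described in spermatids, rose 2.20-fold, from 4.63, 4.35 and 5.09 CPM to 9.70, 9.55 and 11.7 CPM. The groups did not overlap (1.13, SE 0.156, adjusted p = 0.00115), and the GC-corrected value was 0.66 (adjusted p = 0.0193). The proteins of Trim24, Trim28 and Trim33 are known to form complexes with one another. Per transcript length, in the authors' FPKM, Trim28 was at 19.9 and Trim24 at 10.2 in control, and they were at 34.9 and 2.79 in the knockdown.

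Among the members with NHL repeats, a propeller-shaped domain that binds RNA or protein, Trim2 fell, Trim3 rose and Trim32 did not pass. Trim2, a ligase of neurons that binds neurofilament light chain, was at 10.5, 11.9 and 8.46 CPM in control and at 3.54, 3.97 and 3.19 CPM in the knockdown. It fell 2.88-fold without overlap (ENSMUSG00000027993.17, chromosome 3, log2 fold change −1.52, SE 0.185, adjusted p = 0.000705; GC-corrected −1.49). Trim3, its close relative, was at 57.9, 43.1 and 62.4 CPM and at 86.6, 85.7 and 83.3 CPM. Its groups did not overlap (0.64, SE 0.162, adjusted p = 0.0149). That call did not hold after GC correction (0.10, adjusted p = 0.673), nor without knockdown replicate 1 (0.64, adjusted p = 0.0586) or knockdown replicate 2 (0.65, adjusted p = 0.0551). Trim32, a ligase mutated in a limb-girdle muscular dystrophy, had a log2 fold change of 0.42 (adjusted p = 0.281; GC-corrected 0.22) with overlapping groups. Trim71, the NHL member of embryonic stem cells that cooperates with let-7 regulation, had no protein-coding entry in the deposited count table.

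Trim45, which ends in a filamin-type domain and has been described as a repressor of MAPK-driven transcription, rose 2.60-fold. It went from 12.6, 18.4 and 15.6 CPM in control to 41.3, 40.1 and 40.1 CPM in the knockdown, and the groups were far apart. The gene (ENSMUSG00000033233.18, chromosome 3) had a log2 fold change of 1.38 (SE 0.166, adjusted p = 0.000695) and a GC-corrected value of 0.94 (adjusted p = 0.00455).

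Trim23, the member whose C terminus is an ARF-type GTPase domain and which acts in antiviral signalling and autophagy, showed the largest change of the tested members without correction. After GC correction those of Trim24, Trim34a, Trim33 and Trim2 were larger. It went from 12.3, 3.67 and 12.8 CPM in control to 0.746, 0.661 and 0.708 CPM in the knockdown, a 13.6-fold fall. Control replicate 2 was low but above all knockdown libraries, which held 24, 22 and 22 counts. The gene (ENSMUSG00000021712.16, chromosome 13) had a log2 fold change of −3.76 (SE 0.509, adjusted p = 0.00115) and −4.15 without control replicate 2. The transcript has 38.3% GC, and the GC-corrected value was −1.41 (adjusted p = 0.0382).

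**Figure D3:**
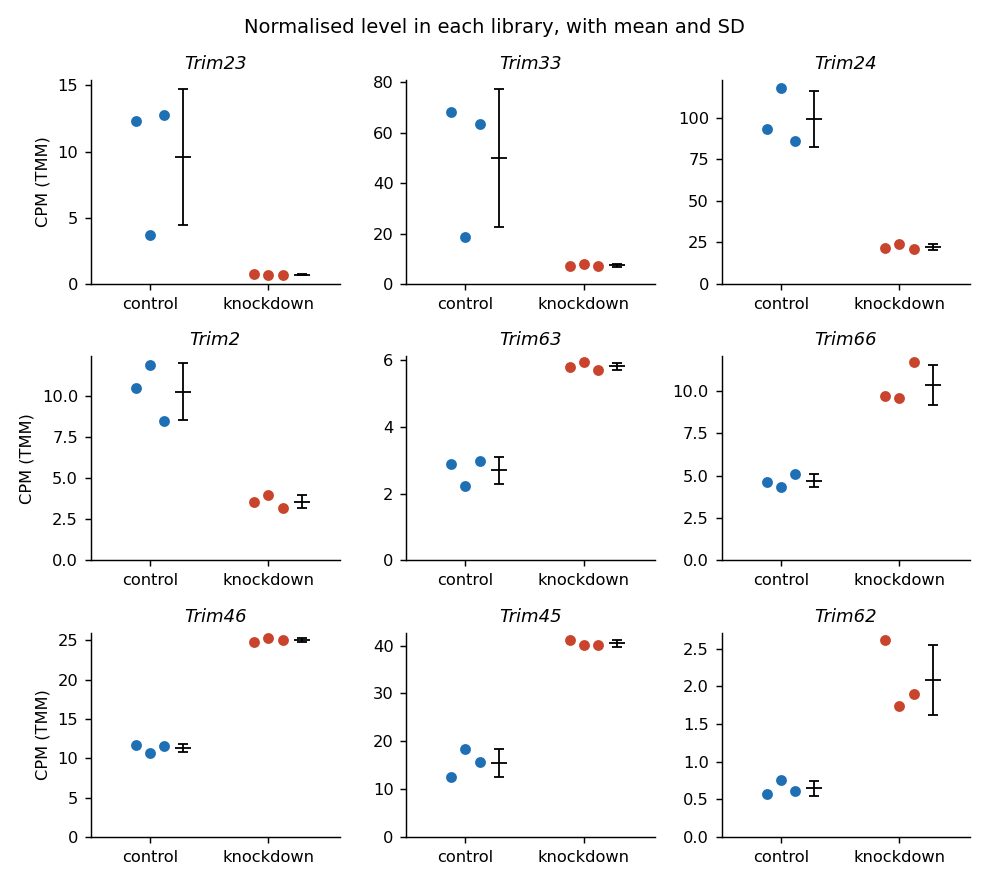
Normalised level (CPM, linear axis from 0) of the 9 TRIM genes whose call held under all 4 composition corrections, one point per library with the mean and SD of each group at the right. No control point overlaps a knockdown point in any panel, and control replicate 2 is the low control of Trim23 (3.67 CPM) and Trim33 (18.4 CPM).

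Of the tested members grouped here for ties to microtubules or muscle, only Trim46 and Trim63 were called in the uncorrected edgeR test, both higher. In that test 48.0% of all tested genes were called. Trim46, which has a microtubule-associated COS box and organises the axon initial segment of neurons, was at 11.7, 10.7 and 11.5 CPM in control and at 24.8, 25.2 and 25.1 CPM in the knockdown. Replicates agreed closely, and the log2 fold change was 1.14 (SE 0.121, adjusted p = 0.000375) with a GC-corrected value of 0.49 (adjusted p = 0.0276). Its exons overlap those of Krtcap2 on the other strand in the GENCODE M21 annotation.

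Trim63, or MuRF1, the ligase of muscle atrophy, rose 2.15-fold at a low level. It was at 2.89, 2.23 and 2.96 CPM in control and at 5.78, 5.92 and 5.70 CPM in the knockdown, without overlap. The gene (ENSMUSG00000028834.14, chromosome 4) had a log2 fold change of 1.10 (SE 0.176, adjusted p = 0.00218), GC-corrected 0.84 (adjusted p = 0.00903). Of the 5 muscle markers listed, 3 were in the analysis, and Acta1, Myh3 and Des together reached 0.236 to 0.539 CPM in control and 0.483 to 0.931 CPM in the knockdown. Des was at 1.55 (adjusted p = 0.0543). The part of muscle-like cells in the rise of Trim63 was not tested. The related MURF gene Trim54, the COS-box gene Trim36 and the centrosomal MATH-domain gene Trim37 were not called, and each changed sign with GC correction. Trim54 was at 0.40 and −0.25 after GC correction, and was called higher without control replicate 2 (0.68, adjusted p = 4.63e-06). Trim36 was at −0.30 and 0.72, and was called higher with GC content and length removed (0.82, adjusted p = 0.0280). Trim37 was at −0.25 and 0.32. It was called higher with GC content and length removed (0.44, adjusted p = 0.0127) and lower, uncorrected, without control replicate 2 (−0.44, adjusted p = 3.72e-05). No direction is given for these 3.

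Trim59 and Trim13, ligases anchored in membranes, both fell, and both had GC-poor transcripts of 37.6 and 42.2%. Trim59 was at 33.0, 37.3 and 31.4 CPM in control and at 4.88, 4.45 and 5.38 CPM in the knockdown, a 6.92-fold fall with replicates close together. It had the smallest adjusted p of the family, 2.88e-05 (ENSMUSG00000034317.15, chromosome 3, log2 fold change −2.79, SE 0.150). The GC-corrected value was −0.37 (adjusted p = 0.234). With GC and adenine content and length removed it was −0.64 (adjusted p = 0.0263), and with the longest transcript's GC −0.69 (adjusted p = 0.0376).

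Trim13, a ligase of the endoplasmic reticulum, was at 2.58, 2.98 and 2.66 CPM and at 1.65, 1.08 and 1.90 CPM (−0.83, SE 0.252, adjusted p = 0.0301). After GC correction its sign turned (0.48, adjusted p = 0.219), and the turned value passed when control replicate 2 was also dropped (0.67, adjusted p = 0.034). Uncorrected, leaving out control replicate 1 or 3 ended its call (−0.88 and −0.85, adjusted p = 0.0601 and 0.0694), as did leaving out knockdown replicate 1 or 2 (−0.87 and −0.62, adjusted p = 0.0780 and 0.0957). So did upper-quartile factors (−0.64) and library totals (−0.58).

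Of the members with no such C-terminal domain, Trim56 fell and Trim8, a regulator of cytokine signalling, was at 0.39 without passing (adjusted p = 0.0554; GC-corrected −0.26). Trim8 was called lower with GC and length removed (−0.37, adjusted p = 0.0168) and with GC, adenine and length removed (−0.35, adjusted p = 0.0221). Uncorrected, it was called higher with DESeq2 (0.38, adjusted p = 0.0330), upper-quartile factors (0.59), library totals (0.64) and without control replicate 2 (0.31, adjusted p = 0.00290), so no direction is given for it. Trim56, an interferon-inducible ligase that promotes cytosolic DNA and RNA sensing, was at 90.7, 65.1 and 88.2 CPM in control and at 54.6, 55.0 and 61.6 CPM in the knockdown. The groups came close without overlap (−0.51, SE 0.162, adjusted p = 0.0353; GC-corrected −0.58, adjusted p = 0.0194). Its call was lost on leaving out any library but control replicate 2, with adjusted p of 0.0991 and 0.103 without control replicates 1 and 3 and 0.131, 0.130 and 0.0776 without knockdown replicates 1, 2 and 3. The log2 fold changes there were −0.43, −0.45, −0.47, −0.47 and −0.56. Library totals alone gave −0.26, upper-quartile factors −0.30 and the table without a count filter −0.49, none past the threshold.

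Of the 3 tested members without a RING finger only Trim14, a mitochondrial adaptor of MAVS signalling, was called. It was at 1.44, 0.324 and 0.943 CPM in control and at 2.11, 2.73 and 3.16 CPM in the knockdown (1.55, SE 0.460, adjusted p = 0.0280). Counts were low, between 9 and 43 in control. After GC correction it was at 0.81 (adjusted p = 0.270). The call was lost without control replicate 3 (1.58, adjusted p = 0.0744) or without knockdown replicate 1 (1.70, adjusted p = 0.0516), 2 (1.54, adjusted p = 0.0757) or 3 (1.43, adjusted p = 0.0890). Trim16 was at 0.14 (GC-corrected 0.21) and was not called. Trim44 was at −0.23 without passing and turned positive in all 4 composition corrections, from 0.10 to 0.43, with the highest value passing (adjusted p = 0.0331, GC, adenine and length removed). Uncorrected, Trim44 was called lower without control replicate 2 (−0.48, adjusted p = 1.97e-05), so no direction is given for it. Exons of Trim14 overlap those of Nans on the other strand.

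The PRY-SPRY members are the largest class, named for a C-terminal domain that recognises partner proteins such as viral capsids or antibody Fc regions. Each member was placed in a single class, so those grouped above are not counted here, whatever their C terminus. Of 31 members 20 were tested, of which 6 rose, 1 fell and 13 were not called, with a median log2 fold change of 0.45, against 21.1% higher and 26.8% lower among all tested genes. After GC correction 3 were called higher and 1 lower (14.0% and 16.6% of all genes), and the median was 0.41, against −0.01 over all genes. The rises were those of Trim62, Trim41, Trim65, Trim26, Trim35 and Trim11.

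Trim62, a ligase described in epithelial polarity and in CARD9 signalling, rose 3.24-fold from 0.571, 0.755 and 0.606 CPM to 2.61, 1.74 and 1.90 CPM. Every knockdown library was above every control at this low level, with 17 to 21 counts in control and 58 to 84 in the knockdown. The gene (ENSMUSG00000041000.9, chromosome 4) had a log2 fold change of 1.69 (SE 0.273, adjusted p = 0.00230), GC-corrected 1.08 (adjusted p = 0.0195).

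Trim41, a ligase that acts on viral nucleoproteins, went from 55.5, 28.1 and 55.7 CPM to 96.8, 97.8 and 95.8 CPM (1.06, SE 0.259, adjusted p = 0.0135), and Trim35, which acts on pyruvate kinase M2, from 117, 54.8 and 115 CPM to 174, 178 and 165 CPM (0.85, SE 0.28, adjusted p = 0.0410). In both, control replicate 2 was well below the other controls and the knockdown libraries were close together. Neither was called after GC correction (0.45 and 0.58, adjusted p = 0.250 and 0.148). The call of Trim35 was lost without control replicate 3 (1.01, adjusted p = 0.0504) or without knockdown replicate 1 (0.85, adjusted p = 0.102), 2 (0.84, adjusted p = 0.104) or 3 (0.89, adjusted p = 0.0885). Exons of Trim41 overlap those of the abundant gene Rack1 on the other strand. The sources used here do not state the strand setting of the counting, so reads of such pairs cannot be told apart.

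Trim65, a ligase of the RNA sensor MDA5, was at 1.04, 0.575 and 1.11 CPM and at 1.71, 1.86 and 1.61 CPM (0.92, SE 0.293, adjusted p = 0.0360; GC-corrected 0.52, adjusted p = 0.216). Without control replicate 1 it was at 1.02 (adjusted p = 0.0620), and without knockdown replicates 1, 2 and 3 at 0.93, 0.87 and 0.98 (adjusted p = 0.0925, 0.110 and 0.0760). It overlaps its neighbour Trim47 on the same strand, which was not called. Trim11, a ligase of protein quality control, was at 26.2, 22.4 and 29.4 CPM and at 42.5, 36.9 and 33.8 CPM (0.54, SE 0.158, adjusted p = 0.0272). It was at −0.11 after GC correction, and at −0.23 and past the threshold in the other direction when control replicate 2 was also dropped (adjusted p = 0.0160). Uncorrected, its call was lost without control replicate 1 (0.54, adjusted p = 0.0670), knockdown replicate 1 (0.45, adjusted p = 0.114) or knockdown replicate 2 (0.56, adjusted p = 0.0793).

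The interferon-inducible members that were called were split in direction, and their share called was near that of all tested genes (48.0%). Of 11 on the list 9 were tested, of which Trim14 and Trim26 rose, Trim12c and Trim56 fell and 5 were not called, with a median log2 fold change of 0.15. After GC correction 2 were called higher (Trim21 and Trim34a) and 2 lower (Trim12c and Trim56), against 14.0% and 16.6% of all genes. The median was then 0.54 over the 9 on this list and −0.01 over all genes. The wider list of RNA sensing and antiviral members, which overlaps it, had 12 tested, with 3 higher, 4 lower and a median of 0.32, and 1 higher and 2 lower after GC correction (30.6% of all genes called).

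Interferon-inducible genes are switched on through the interferon-stimulated response element, to which ISGF3 and IRF factors bind. The core GAAANNGAAA was searched on both strands of RefSeq promoter windows of 300 bases (250 before to 50 after each gene's start, build GRCm38.p6), with overlapping matches allowed. A match was present for 9 of the 43 members with a window (20.9%) and for 8 of the 10 interferon-inducible members with one, against 3.99% of 27025 genes. The matching members were Trim5, Trim12a, Trim12c, Trim21, Trim26, Trim30a, Trim30d, Trim34a and, outside the interferon list, Trim2. A match is a description of these letters and not a shown binding site. Stretches before the start are printed for Trim12c and Trim26, which changed in opposite directions, and for the near-identical pair Trim30a and Trim30d. They read 5′ to 3′ on the gene's strand, with the matches in capitals; a match on the other strand reads TTTCNNTTTC, and Trim26 holds a pair that overlap.
Trim12c: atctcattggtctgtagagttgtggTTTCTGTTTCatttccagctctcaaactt
Trim26: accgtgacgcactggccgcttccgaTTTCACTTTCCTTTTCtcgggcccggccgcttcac
Trim30a: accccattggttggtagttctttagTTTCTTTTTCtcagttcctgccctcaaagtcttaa
Trim30d: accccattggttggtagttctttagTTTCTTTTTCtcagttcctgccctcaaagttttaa
On GRCm38.p6 these lie at chr7:104353350-104353403 (minus strand), chr17:36836961-36837020 (plus strand), chr7:104465195-104465254 and chr7:104507856-104507915 (both minus strand).

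Trim12c, a mouse relative of the retroviral restriction factor TRIM5 and bearer of the first of these stretches, fell 4.65-fold. It was at 14.6, 8.77 and 12.3 CPM in control and at 2.42, 2.70 and 2.54 CPM in the knockdown, without overlap (ENSMUSG00000057143.16, chromosome 7, −2.22, SE 0.221, adjusted p = 0.000315). The GC-corrected value was −0.57 (adjusted p = 0.0252), and the one for GC, adenine and length was −0.09 (adjusted p = 0.598). Trim26, a ligase that acts on IRF3, went from 99.2, 54.1 and 95.7 CPM to 155, 153 and 155 CPM (0.90, SE 0.231, adjusted p = 0.0166; GC-corrected 0.54, adjusted p = 0.118), and it was called in 2 of the 4 corrections. Its call was narrowly lost without knockdown replicate 1 (0.90, adjusted p = 0.0538), 2 (0.92, adjusted p = 0.0503) or 3 (0.90, adjusted p = 0.0516).

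Trim30a, a brake on NF-kB signalling in mouse myeloid cells, was not called. It was at 19.7, 5.79 and 17.1 CPM in control and at 8.14, 7.69 and 9.69 CPM in the knockdown, so control replicate 2 lay below all knockdown libraries and the other controls above them. The log2 fold change was −0.74 (adjusted p = 0.176), −1.11 without control replicate 2 (adjusted p = 3.73e-07) and 1.0 after GC correction (adjusted p = 0.0616). With GC content and length removed it was called higher (1.0, adjusted p = 0.0384). Its transcript has 40.8% GC, and no direction is given for it.

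Trim21, the cytosolic antibody receptor, was at 27.2, 13.9 and 26.7 CPM in control and at 29.7, 29.7 and 31.9 CPM in the knockdown (0.43, adjusted p = 0.203). Every knockdown library was above every control, and the GC-corrected value passed (0.94, adjusted p = 0.0155). Trim34a was at 4.30, 1.58 and 3.71 CPM and at 6.68, 5.89 and 5.92 CPM (0.94, adjusted p = 0.0543) and passed after GC correction (1.82, adjusted p = 0.00464). Leaving out control replicate 1 (1.21, adjusted p = 0.0414) or 2 (0.62, adjusted p = 0.00212) also made it pass, as did DESeq2 (0.94, adjusted p = 0.0185). Trim12c, Trim34a and the Trim30 genes have near-identical copies beside them, and their counts are uncertain, since reads may have been split between copies. The remaining 11 uncalled PRY-SPRY members, Trim6, Trim7, Trim27, Trim30c, Trim30d, Trim34b, Trim39, Trim47, Trim68, Trim69 and Trim30a, had log2 fold changes between −1.15 and 0.73. Of these, Trim39 was called lower with GC and length removed (−0.37, adjusted p = 0.0166) and with the longest transcript's GC removed (−0.42, adjusted p = 0.0268). Trim7 was called higher with the longest transcript's GC removed (0.80, adjusted p = 0.04996).

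Per length, Trim27, a ligase that modifies NF-kB and retromer regulators, was the most abundant TRIM messenger RNA in both groups. By the authors' FPKM (fragments scaled to transcript length and library size) it was at 27.2, 37.1 and 31.9 in control and at 47.7, 46.8 and 44.3 in the knockdown. FPKM rose in general, with a median log2 fold change of 0.28 over 9804 genes on log2(FPKM + 1). On the CPM scale Trim27 was not called (0.25, adjusted p = 0.195), and it was called higher without control replicate 2 (0.39, adjusted p = 0.000109). In control Trim28 (19.9 ± 1.63 FPKM) and Trim35 (18.3 ± 6.97 FPKM) followed and did not differ beyond their spread. Trim8 (16.0 ± 2.06), Trim54 (15.3 ± 4.46) and Trim41 (11.7 ± 4.13) came next, again with overlapping libraries between neighbours. In the knockdown the order was Trim27, Trim35 (39.8 ± 1.44), Trim28 (34.9 ± 0.255) and Trim41 (29.4 ± 0.303), whose libraries did not overlap. The members that fell moved down this order, with Trim24 from the 10th place (10.2 ± 1.54 FPKM) to the 18th (2.79 ± 0.195), Trim59 from the 12th to the 25th, Trim33 from the 18th to the 28th and Trim23 from the 23rd to the 40th. Trim45 moved from the 22nd place (2.28 ± 0.420 FPKM) to the 13th (7.20 ± 0.0794).

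**Figure D4:**
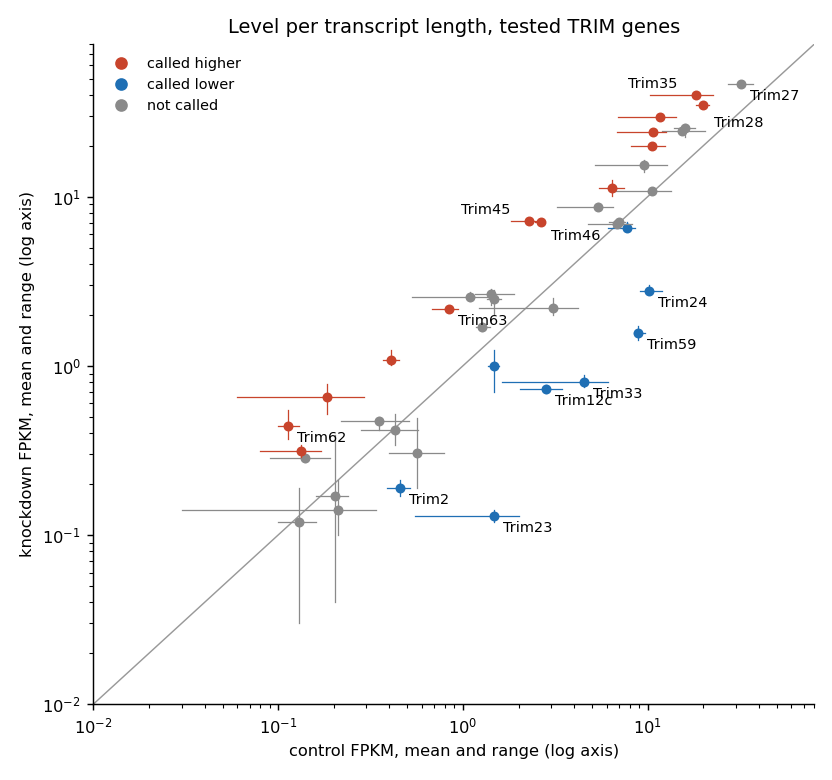
FPKM of the 41 tested TRIM genes in control and in RIOK3 knockdown (mean with the range over 3 libraries, both axes logarithmic, diagonal at equal level), coloured by call. Trim24, Trim59, Trim33, Trim12c, Trim2 and Trim23 lie well below the diagonal, and most other members lie on or above it. Over the 9804 genes fitted on log2(FPKM + 1) the median log2 fold change was 0.28, so most genes in general lie above the diagonal.

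The 14 members below the filter had at most 14 counts in any library. Trim40, the reported partner of RIOK3, had 2, 0 and 5 counts in control and 5, 1 and 0 in the knockdown, so no difference was detectable at this depth. Trim17 had 1, 0 and 5 counts in control and 12, 14 and 4 in the knockdown, Trim72 had 6, 10 and 9 against 0, 2 and 6, and Trim10 had 0, 0 and 0 against 6, 2 and 3. The other 10, Trim5, Trim12a, Trim15, Trim30b, Trim43a, Trim43b, Trim43c, Trim52, Trim60 and Trim61, had at most 4 counts in any library.

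Relatives that carry other symbols and partners of TRIM proteins were read from the same fit, in which 48.0% of all genes were called. Of 6 tested relatives 2 rose and 2 fell. Pml, the organiser of nuclear bodies, went from 17.7 ± 2.97 to 30.1 ± 1.02 CPM (0.77, SE 0.157, adjusted p = 0.00645; GC-corrected 0.31, adjusted p = 0.174) and Fsd1 was at 0.86. Cmya5 (−1.76) and Fsd1l (−1.09) fell, of which Cmya5 was also called after GC correction (−1.63, adjusted p = 0.0454). Cmya5 was not called with GC, adenine and length removed (−0.19, adjusted p = 0.705). Fsd1l turned positive after GC correction (0.23, adjusted p = 0.589). It was called higher with the longest transcript's GC removed (1.24, adjusted p = 0.0155), so no direction is given for Fsd1l. Mid1, the microtubule-associated ligase mutated in Opitz syndrome, was at 0.88 without passing (adjusted p = 0.134).

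Of 12 genes on the list of E2 enzymes, 4 rose and 4 fell (48.0% of all genes called). After GC correction 6 were higher and 1 lower (30.6% of all genes called). Ube2l6, the E2 of the interferon-induced modifier ISG15, went from 9.07 ± 1.95 to 24.2 ± 0.931 CPM (1.42, SE 0.180, adjusted p = 0.000879; GC-corrected 1.35), and Ube2d1 was at 1.06 (GC-corrected 1.62), both called either way. Ube2v2 fell by 3.46 on the log2 scale and Ube2e1 fell by 0.81, and neither was called after GC correction (−0.37 and −0.05). Ube2v2 was called lower with GC, adenine and length removed (adjusted p = 0.00180) and with the longest transcript's GC removed (adjusted p = 0.00713). Ube2e1 was called higher with the longest transcript's GC removed (0.60, adjusted p = 0.0163). Of 10 partners of TRIM28 and TRIM33, 5 fell and 0 rose, where 26.8% of all genes fell and 21.1% rose. The heterochromatin protein genes Cbx3 (−1.26), Cbx5 (−1.07) and Cbx1 (−0.68), Morc3 (−1.14) and Smad4 (−0.38, named after its value was seen) were lower. After GC correction only Cbx1 among these 5 was called (−0.42, adjusted p = 0.0351), 1 partner was higher and the median of the list was 0.04. Cbx1 was not called with GC and length, with GC, adenine and length or with the longest transcript's GC removed (adjusted p = 0.140, 0.153 and 0.691). Smad4, at −0.34 after GC correction (adjusted p = 0.0501), was called lower in each of those (−0.38, −0.47 and −0.41). Cbx5 was called lower with GC, adenine and length removed (−0.37, adjusted p = 0.0481). Cbx3 was called higher with the longest transcript's GC removed (0.66, adjusted p = 0.0120).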

How the data were processed

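The authors deposited raw counts per gene for 22030 genes in 6 libraries, 1 column per library. The authors also deposited FPKM of 21879 genes, fragments scaled to transcript length and library size, rounded, used here for levels between genes and for alternatives. HISAT2, MultiQC and GRCm39 are named per the submitters' processing notes, with no role or version. A stranded kit was used, per the labels' protocols, and the sources used here name no counting tool or strand setting.

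Counts were filtered with filterByExpr (13067 genes, 99.9% of counts), scaled by TMM and tested with edgeR 4.0.16 (R 4.3.3; glmQLFit with robust estimation and glmQLFTest, no covariates, two-sided), with Benjamini-Hochberg adjustment over all tested genes. The SE is the size of the log2 fold change divided by the square root of F. The procedure was tested on simulated data. GC content and length came from GENCODE M21 (GRCm38) by gene identifier, for 13043 genes, each by the transcript with the longest coding part. Each library's deviation of log2 CPM (prior count 2) from the mean of libraries was fitted by robust loess (span 0.3, degree 1) and entered as an offset. Alternatives were DESeq2 1.42.0, limma 3.58.1 (voom on counts, trend on log2 FPKM with a pseudocount of 1 or 0.1), other factors and filters, a replicate block, composition offsets and single libraries left out. Promoters are RefSeq's, GRCm38.p6.

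The members, their classes and the lists were chosen with earlier results of these data known. By rule the text names called members (up to 12 in each direction by size), Trim21, Trim24, Trim28, Trim30a, Trim33, Trim40 and Trim63, and from each list of relatives or partners the 4 with the smallest p, Pml and Mid1. Trim27, Trim34a and the other uncalled members given with values were chosen after these were seen.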

Additional observations from a re-analysis of the deposited data

How the results depend on the processing

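Riok3 stayed lower and past the threshold in all 23 alternatives (log2 fold change −2.32 to −0.78). Members called higher, 13 here, numbered 20 with limma-voom, with library totals alone and with unfiltered log2(FPKM + 1), 7 with the GC offset, and 7 to 19 with 1 library left out. Members called lower, 8 here, numbered 15 with limma-voom, 4 with either filtered FPKM fit, which held 29 members, and 6 to 13 with 1 library left out. The members' median, 0.39, was 0.71 with log2(FPKM + 0.1), 0.049 with unfiltered FPKM and 0.25 to 0.43 with 1 library left out. The median of all genes was 0.35 with log2(FPKM + 0.1) and 0.0095 with unfiltered FPKM. Of all genes, 4672 were higher with limma-voom, 4280 with library totals, 1830 with the GC offset and 1647 to 4701 with 1 library left out. Genes called lower numbered 2162 with the GC offset, 2234 with the longest transcript, 2154 with adenine content and length added, 1976 and 1974 with filtered FPKM at pseudocounts of 1 and 0.1, and 2693 to 4891 with 1 library left out. A lone missing library leaves 2 in its group, and the fit pools the spread.

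For the replicate block, same-numbered libraries had correlations of deviations of −0.08, 0.04 and 0.05, and differently numbered ones −0.11 to 0.12. These values do not settle whether the numbers pair the samples. With the replicate block 12 members were higher and 6 lower, with 2390 and 3225 of all genes. With the block and the GC offset the members were 6 and 5 and all genes 1259 and 1651.

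For 32 members followed through every alternative, sign changes arose in 56 of 192 values from the 6 composition fits and in 7 of 526 values from the 17 others. In the order GC offset, GC and length, GC with adenine and length, longest transcript, GC without control replicate 2, and replicate block with GC, Trim11 was at −0.11, −0.12, −0.12, −0.023, −0.23 and −0.10. Trim13 was at 0.48, 0.34, 0.16, 0.29, 0.67 and 0.48. Trim28 was at −0.11, −0.20, −0.24, −0.13, −0.12 and −0.11, and Trim30a at 1.0, 1.0, 0.80, 0.76, 0.70 and 1.10. Trim36 was at 0.72, 0.82, 0.68, 0.56, 0.58 and 0.73, Trim37 at 0.32, 0.44, 0.26, 0.21, 0.18 and 0.34, and Trim8 at −0.26, −0.37, −0.35, −0.29, −0.37 and −0.26. Trim44 was at 0.21, 0.31, 0.43 and 0.10 in the first 4 and at 0.24 in the last, and Trim54 at −0.25, −0.13, −0.27, −0.016 and −0.21 in all but the third. Trim3 was at −0.057 and Trim32 at −0.061 in the fifth of these, and Trim27 at −0.013 and −0.16 in the second and the third. Outside these fits, Trim44 was at 0.016 with library totals, and Trim44 and Trim37 at 0.099 and 0.049 with log2(FPKM + 1), filtered or not, and at 0.11 and 0.061 with log2(FPKM + 0.1). The cause was not tested. Members with under 50 counts in some libraries, such as Trim14, Trim30c, Trim30d and Trim6, are limited by depth.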

Other observations

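Of the 16 members on chromosome 7, 12 were tested, of which 3 rose and 1 fell (21.1% and 26.8% of all tested genes). The member that fell, Trim12c (−2.22), lies in RefSeq gene order in the same run of TRIM genes as Trim34a, which was at 0.94 without passing in the edgeR test. On chromosome 11, 8 members lie and 7 were tested, of which 3 rose and 0 fell (21.1% and 26.8% of all tested genes). Those that rose, Trim11, Trim41 and Trim65, were called in none of the 4 composition corrections. All 5 members on chromosome 3 were tested and called, where 48.0% of all tested genes were called. Trim2, Trim33 and Trim59 were lower and Trim45 and Trim46 higher, and of these 5 only Trim59 was not called after GC correction (−0.37, adjusted p = 0.234).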
